A study of Mus musculus with 6 samples.

Results

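Short-term haematopoietic stem cells (ST-HSCs) were compared with multipotent progenitors (MPPs) in bulk RNA-seq libraries of sorted mouse bone marrow. The comparison used 4 of the 6 libraries of the series, 1 WT ST-HSC, 1 Ing4-/- ST-HSC, 1 WT MPP and 1 Ing4-/- MPP library. The 2 libraries of long-term stem cells (LT-HSCs) entered only the closing sections and the fits without 1 of the 4. Those fits kept both LT-HSC libraries, so a median given without a library also depends on LT-HSC levels. The libraries were taken by their labels, and genes were read by whether their level differed in the same direction in both genotypes. The Ing4-/- mice lack ING4, a chromatin reader of the inhibitor of growth family, in every cell from birth, and the controls were WT mice of the C57BL/6 strain. The WT controls were young adults, no source used here ties an age to the Ing4-/- mice of these libraries, and no treatment is named for them. Marrow of several mice of 1 genotype was pooled, lineage-depleted and sorted, so each library is 1 pool and the spread between individual animals was not measured. Both populations were sorted as lineage-negative, Sca1+, cKit+, CD48- and CD34+ cells. The gates differed in CD150 only, which was positive for ST-HSCs and negative for MPPs. CD150 is encoded by Slamf1, so Slamf1 belongs to the sort and its level is given as a check.

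ST-HSCs repopulate the marrow for a limited time after transplantation, and MPPs, which arise from them, produce all blood lineages with little self-renewal. Along this path the progenitors are known to acquire the cytokine receptor FLT3 and transcripts of the lymphoid and myeloid branches, a state called lineage priming. The megakaryocyte and erythroid branch is known to be primed on the CD150+ side of the hierarchy. Cells also differ along this path in how often they divide, which is read in RNA from the genes of S phase and mitosis.

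The WT ST-HSC and WT MPP libraries held 8047002 and 9363442 counts, and the Ing4-/- ST-HSC and Ing4-/- MPP libraries held 37811937 and 39192588. The WT libraries also had counts in 41347 and 41763 genes, against 15466 and 16188 in the Ing4-/- libraries, and olfactory and vomeronasal receptor genes, which blood cells do not use, drew 22.7 and 18.1 counts per kb in the WT libraries against 0.0694 and 0.0387 in the Ing4-/- libraries. Applied to all exons, that level would make up 33.1% of the counts of the WT ST-HSC library and 22.6% of the WT MPP library, so a low WT count can be background, and genotype cannot be told apart from depth and background in these libraries. Ing4 itself had 162 and 247 counts in WT ST-HSCs and WT MPPs, against an average background of 121 and 96.3 for its exons, and 24 and 76 counts in the Ing4-/- libraries. Of its exon bases, 34.9% are shared with another gene on the same strand. Summed marker levels of other cell types moved between the populations too. The 12 megakaryocyte and platelet markers summed to 479 CPM (here scaled to total counts only) in the ST-HSCs of WT mice and 282 in their MPPs, and to 1000 and 272 in the same populations of Ing4-/- mice. The 11 erythroid markers found summed to 156, 117, 169 and 79.9 CPM in the same order, B cell markers to 157, 139, 76.9 and 117, granulocyte markers to 86.7, 63.9, 30.5 and 45.4, and stromal and endothelial markers to 234, 220, 27.9 and 51.1. Basophil and mast cell markers summed to 156, 98.5, 88.4 and 20.6 CPM, T and NK cell markers to 122, 131, 45.3 and 64.6, and monocyte, macrophage and dendritic cell markers to 207, 146, 25.6 and 22.7. The average background alone would give WT ST-HSCs and WT MPPs 98 and 67 CPM of the megakaryocyte sum, 118 and 80.6 of the erythroid, 123 and 84.2 of the B cell, 60.7 and 41.5 of the granulocyte and 218 and 149 of the stromal sum. For basophils and mast cells it would give 66 and 45.1 CPM, for T and NK cells 79.3 and 54.3 and for monocytes, macrophages and dendritic cells 113 and 77.4, so the WT direction of most of these sums cannot be read. Between 3 and 9 markers of each list were at 0 in each Ing4-/- library. In bulk samples, fewer cells of a type and less RNA per cell cannot be told apart.

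Whether ST-HSCs and MPPs differed in the same genes in both genotypes was examined over 11022 genes with 10 or more counts in all 4 libraries, of which 10019 code for proteins. In edgeR's quasi-likelihood test with genotype as a block, 0 genes (0% of those tested) passed an adjusted p of 0.05, the lowest adjusted p being 0.381. At an unadjusted p under 0.05 there were 1244 genes, of which 556 were higher in MPPs in both genotypes, 552 lower in both and 136 of opposite direction. With 2 libraries on each side and 1 residual degree of freedom the test has little to estimate the spread from, and an exact two-sided permutation test within genotypes cannot go below p = 0.5 here. The genotypes stood in as replicates, so a real difference between them in the MPP to ST-HSC ratio counted as spread. DESeq2, run as the alternative on the same counts, called 38 genes higher in MPPs (0.438% of the 8671 genes it gave an adjusted p) and 34 lower (0.392%) with the same direction in both genotypes. The same direction does not mean a like size. Some called genes had close ratios, as Mfsd2b with -1.83 in WT and -1.79 in Ing4-/- on the log2 scale. Others differed mostly in the Ing4-/- pair, as Gpsm1 with 0.69 in WT and 7.13 in Ing4-/- and Syne1 with -0.28 and -3.76. Because the tools differ, the levels of the 4 libraries are given for each gene below, and a DESeq2 call is named as such.

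By size alone, 100 genes (0.907%) were more than 2-fold higher and 118 genes (1.07%) more than 2-fold lower in MPPs than in ST-HSCs in both genotypes, with the ratio taken on log2 CPM with a prior count of 2. Of these, 87 and 92 code for proteins. At any size, 2825 genes (25.6%) were higher in both genotypes, 3237 genes (29.4%) were lower in both, and 4960 went opposite ways. The ratios spread more widely in the Ing4-/- pair, with an SD over genes of 1.14 on the log2 scale against 0.536 in the WT pair. More than 2-fold differences numbered 356 up and 405 down in the WT pair and 1555 up and 1461 down in the Ing4-/- pair. Across genes, Pearson's r between the 2 sets of log2 ratios was 0.0956, and over the 3028 genes with 500 or more counts in all 4 libraries it was 0.233, with 58.3% of those genes on the same side of 0. Genes are not independent replicates, and the 2 ratios share no library. Outside a small set of genes, then, the ratio in 1 genotype told little of the ratio in the other.

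**Figure D1:**
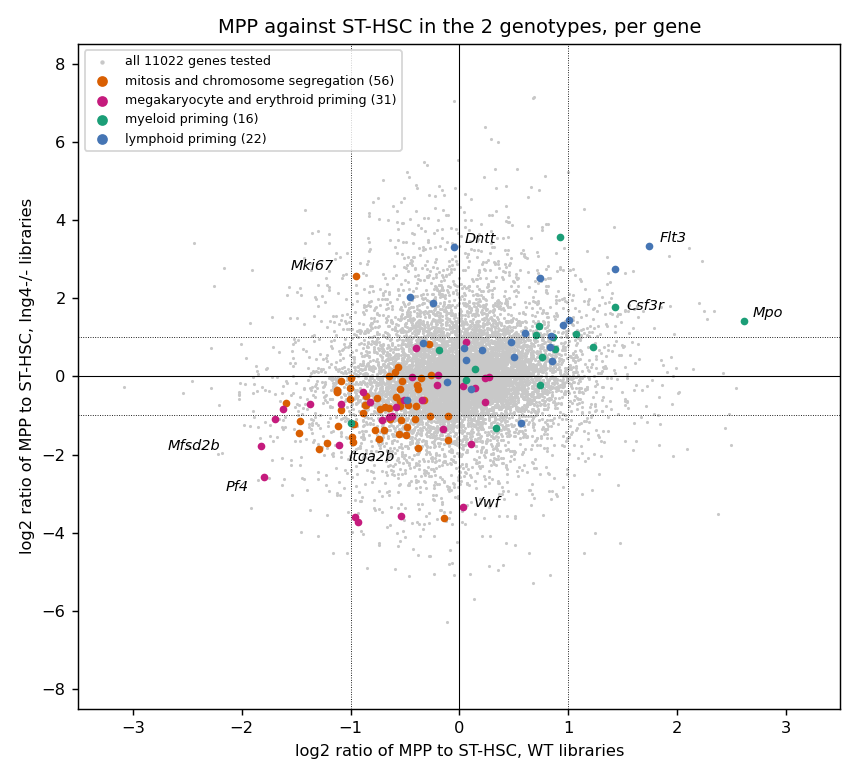
Each point is 1 of 11022 genes, with the log2 ratio of MPP to ST-HSC in the WT libraries on the x axis and in the Ing4-/- libraries on the y axis. Dotted lines mark 2-fold, the mitosis and the megakaryocyte and erythroid genes lie mostly at the lower left, the myeloid and lymphoid genes mostly in the upper right, and Mki67 stands apart at the upper left.

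The gate was visible in the transcripts. Slamf1, the gene of CD150 (chr1:171767127-171801184 in the mm10 assembly), was at 107 CPM in ST-HSCs and 38.8 in MPPs of WT mice, and at 26.4 and 8.26 in those of Ing4-/- mice. Within each genotype the ST-HSC library was higher, by 2.76-fold in WT and 3.17-fold in Ing4-/-, while the Ing4-/- ST-HSC level lay below the WT MPP level. Cd34, a sialomucin of progenitors whose product was required in both gates, had 313 CPM in WT ST-HSCs, 671 in Ing4-/- ST-HSCs, 840 in WT MPPs and 1460 in Ing4-/- MPPs. Both MPP libraries were above both ST-HSC libraries, the fitted log2 fold change was 1.26 ± 0.14 (SE, 2 libraries a side), and DESeq2 called it (adjusted p = 1.63e-11). Kit, the stem cell factor receptor, was 1.64-fold and 1.86-fold higher in MPPs in WT and Ing4-/-, from 499 and 504 to 819 and 936 CPM, and was called by DESeq2 (adjusted p = 0.000822). Ly6a, which encodes Sca1, went from 44.2 to 71.8 CPM in WT and from 60.8 to 156 in Ing4-/-. Cd48, whose product was absent by the gate from both populations, still went from 21.9 to 43.4 CPM and from 32.0 to 119. Ptprc, the gene of the pan-leukocyte antigen CD45, did not keep 1 direction, at 294 and 277 CPM in WT and 91.5 and 151 in Ing4-/-.

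At good depth the lead genes were Flt3, Csf3r and Mpo on the MPP side and Mfsd2b, Slamf1 and Plk1 on the ST-HSC side. To leave out low counts, protein-coding genes that reached 200 counts in each of the 4 libraries and had a WT count above the average background in both WT libraries were ordered by the smaller of the 2 log2 ratios, a rule chosen after the values were seen. Of 6542 such genes the first 12 in each direction are described.

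Flt3 (chr5:147330741-147400489), the receptor tyrosine kinase that marks loss of long-term potential, led the higher genes with 67.4 CPM in WT ST-HSCs, 29.4 in Ing4-/- ST-HSCs, 226 in WT MPPs and 299 in Ing4-/- MPPs. The difference was 3.35-fold in WT and 10.1-fold in Ing4-/-, with a fitted log2 fold change of 2.70 ± 0.39 and a DESeq2 adjusted p of 1.2e-08. Csf3r (chr4:126024550-126044440), the receptor of granulocyte colony-stimulating factor, stood at 71.8 and 40.5 CPM in ST-HSCs and at 194 and 140 in MPPs of WT and Ing4-/-. Mpo (chr11:87793581-87804413), the myeloperoxidase of neutrophil granules, was at 29.7 CPM in WT ST-HSCs, 94.7 in Ing4-/- ST-HSCs, 182 in WT MPPs and 251 in Ing4-/- MPPs. For all 3 genes both MPP levels were above both ST-HSC levels, and DESeq2 called Csf3r (adjusted p = 0.000305) and Mpo (adjusted p = 6e-06) as well. Arid5a, an RNA-binding protein that stabilises inflammatory transcripts, was at 56.7 and 11 CPM in ST-HSCs against 148 and 58.6 in MPPs. Ccl4, a chemokine gene, went from 31.6 to 70.2 CPM in WT and from 14.9 to 71.0 in Ing4-/-. The others were Trpv2, a cation channel, Tgif1, a homeobox repressor of TGF-beta signalling, Adgrg3, an adhesion G protein-coupled receptor, Usp11, a deubiquitinase, and Paqr5, a membrane progestin receptor. Their ratios lay between 1.12 and 2.04 on the log2 scale, as for Plppr3, which differed by 1.60 in WT and 1.23 in Ing4-/-. Cd34 was the remaining gene of the 12.

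On the lower side Mfsd2b, the exporter of sphingosine-1-phosphate from red cells and platelets, came first with 103 and 107 CPM in ST-HSCs of WT and Ing4-/- and 28.9 and 30.9 in MPPs. The fold was nearly the same in both genotypes, 3.55 and 3.46, and DESeq2 called it (adjusted p = 0.000822). Plk1, the Polo-like kinase that drives mitotic entry, was 2.77-fold and 2.74-fold lower in MPPs, from 72.7 and 100 to 26.2 and 36.4 CPM. Aldh1a1, the retinaldehyde dehydrogenase used as a stem cell enzyme marker, was at 82.8 and 62.5 CPM in ST-HSCs against 32.2 and 24.6 in MPPs. Enpp1, an ectonucleotide pyrophosphatase, had 96.1 and 23.7 CPM in ST-HSCs and 36.2 and 7.70 in MPPs, so the Ing4-/- ST-HSC level lay below the WT MPP level as for Slamf1. Pkmyt1, the kinase that holds CDK1 inactive, Ccnb1, its cyclin, Pimreg and Ckap2l, proteins of the mitotic apparatus, Asf1b, a histone chaperone, and Birc5, the survivin subunit of the chromosomal passenger complex, had log2 ratios between -1.14 and -1.85. Ppp1r16b, a regulatory subunit of protein phosphatase 1, differed by -1.13 in WT and -2.33 in Ing4-/-. Slamf1, given above, completed the 12. Plk1, Pkmyt1, Ccnb1, Pimreg, Ckap2l and Birc5 act in G2 and mitosis. This grouping was made after the values were seen, and the share of such genes among all those ranked was not counted.

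**Figure D2:**
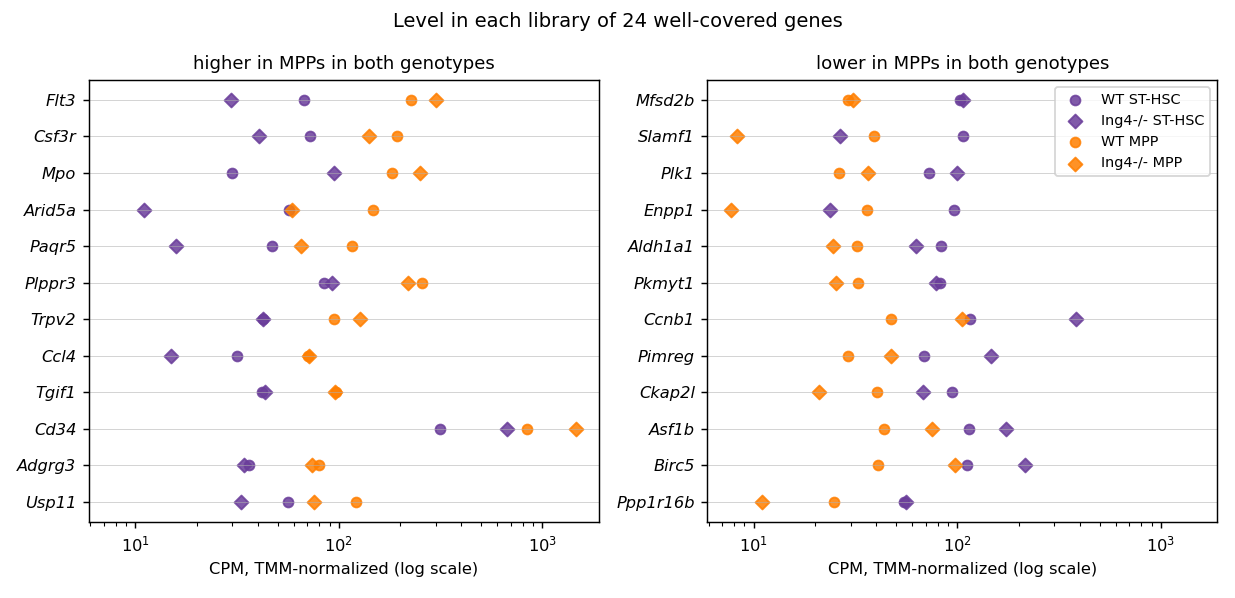
TMM-normalized CPM on a log axis for 24 genes with 200 or more counts in every library, circles for WT and diamonds for Ing4-/-, purple for ST-HSC and orange for MPP. In the left panel the orange points lie to the right of the purple ones, and in the right panel to the left, except for Slamf1 and Enpp1, whose Ing4-/- ST-HSC level is under the WT MPP level.

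Lymphoid priming genes were mostly higher in MPPs. Of the 22 tested of 37 on the list, 14 were higher in MPPs in both genotypes, 2 were lower in both and 6 went opposite ways, against 25.6% and 29.4% of all genes. The median log2 ratio was 0.49 in WT and 0.86 in Ing4-/-, while the median over all genes was -0.0035 and -0.053. DESeq2 called Flt3, Lsp1 and Gpr171, and edgeR called none of the list. The median fitted log2 fold change, 0.78, was 0.45 without the Ing4-/- ST-HSC library and 0.22 without the Ing4-/- MPP library. Lsp1, an actin-binding protein of lymphocytes, went from 110 to 222 CPM in WT and from 84.1 to 228 in Ing4-/-. Gpr171, a G protein-coupled receptor, went from 136 to 263 and from 99.6 to 248 CPM, so that both MPP levels lay above both ST-HSC levels. Cd27, a co-stimulatory receptor that splits early progenitors, was at 90.7 and 131 CPM in ST-HSCs and 162 and 220 in MPPs. Ighm, the immunoglobulin mu constant region, whose sterile transcripts appear early in lymphoid priming, had 24 and 307 counts in ST-HSCs and 81 and 2215 in MPPs of WT and Ing4-/-. The WT counts of Ighm compare with an average background of 42.9 and 34.1, so the WT ST-HSC level cannot be told from background. Dntt, the terminal transferase of early lymphoid cells, was 22.8 and 21.9 CPM in the 2 WT libraries but 8.22 and 81.8 in the Ing4-/- libraries, Sox4 was 17.9 and 15.1 against 11.6 and 43.1, and Id2 was 6.83 and 4.96 against 2.64 and 11.1. For these 3 genes the WT libraries showed no increase and the Ing4-/- libraries a difference of 1.89 or more on the log2 scale, a contrast that was not tested. Mef2c, a transcription factor of early lymphoid cells and the most abundant gene of the list, was lower in MPPs in both, from 241 to 173 and from 302 to 200 CPM, and Tcf4 differed by -0.12 and -0.14.

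Myeloid priming genes moved the same way. Of the 16 tested of 32, 11 were higher in MPPs in both genotypes, 1 lower and 4 of opposite direction, against 25.6% higher and 29.4% lower among all genes. The median log2 ratios were 0.75 in WT and 0.72 in Ing4-/-. DESeq2 called Csf3r and Mpo. Prtn3, the proteinase of the same granules as Mpo, was at 89.9 and 199 CPM in ST-HSCs and at 165 and 323 in MPPs, so that the Ing4-/- ST-HSC level lay above the WT MPP level. Spi1, the gene of the master regulator PU.1, went from 99.5 to 168 CPM in WT and from 124 to 176 in Ing4-/-. Plac8, an early myeloid transcript, went from 50.2 to 83.4 and from 134 to 326 CPM. Tyrobp, an adaptor of innate receptors, went from 43 to 101 counts in WT and from 137 to 1767 in Ing4-/-. Fcer1g, a related adaptor, went from 28.7 to 67.2 CPM and from 48.0 to 80.2, and Mgst1, a glutathione transferase, from 10.1 to 21.4 and from 22.9 to 48.4. Lyz2, the macrophage lysozyme and 1 of the most abundant genes of the list, was nearly level, at 402 and 420 CPM in WT and 762 and 713 in Ing4-/-. Coro1a, an actin regulator of leukocytes, differed by 0.14 and 0.20 on the log2 scale. The gene lower in both was Ms4a3, a marker of granulocyte-monocyte progenitors, at 13.9 and 18 CPM in ST-HSCs and 6.93 and 7.79 in MPPs. In Ing4-/- mice the summed granulocyte markers were 30.5 CPM in ST-HSCs and 45.4 in MPPs, while most of their WT sums is background, and their part in the list's values was not tested.

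Genes of the megakaryocyte and erythroid branch were mostly lower in MPPs than in ST-HSCs. Of the 31 tested of 34, 21 were lower in both genotypes, 1 was higher in both and 9 went opposite ways, against 29.4% lower and 25.6% higher among all genes. The median log2 ratios were -0.54 in WT and -0.71 in Ing4-/-. DESeq2 called 5 of them, Pf4, Itga2b, Mfsd2b, Apoe and Cd9, all lower in MPPs. Pf4 (chr5:90772435-90773383), the platelet factor of alpha granules, had 64.0 CPM in WT ST-HSCs, 365 in Ing4-/- ST-HSCs, 18.4 in WT MPPs and 61.1 in Ing4-/- MPPs. Within each genotype the ST-HSC level was higher, by 3.47-fold and 5.97-fold, with a fitted log2 fold change of -2.41 ± 0.28 and a DESeq2 adjusted p of 8.3e-09. Itga2b, the CD41 integrin chain of megakaryocytes, was at 316 and 497 CPM in ST-HSCs and at 147 and 148 in MPPs, a fitted log2 fold change of -1.47 ± 0.21 (DESeq2 adjusted p = 8.45e-07). Both ST-HSC levels were above both MPP levels. Apoe, apolipoprotein E, went from 695 to 394 CPM in WT and from 1290 to 818 in Ing4-/-. Cd9, a tetraspanin of platelets, went from 162 to 98.5 and from 438 to 203 CPM.

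Of the 4 tested erythroid markers, 2 were lower in both genotypes and 2 went opposite ways, and the genes below are examples. Gata1, the zinc finger factor that directs both fates, was at 80.5 and 114 CPM in ST-HSCs and 26.2 and 64.1 in MPPs of WT and Ing4-/-. Epor, the erythropoietin receptor, was at 28.2 and 30.4 against 10.8 and 18.5 CPM, with both ST-HSC libraries above both MPP libraries. Klf1, an erythroid Krüppel-like factor, had 51 and 1287 counts in ST-HSCs and 32 and 111 in MPPs. Car1, a red cell carbonic anhydrase, had 165 and 1088 counts against 106 and 86. In WT the counts of Klf1 compare with an average background of 34.8 and 27.7, so the size of its WT difference is uncertain. Rhag, a red cell membrane protein, and Aqp1, a water channel of red cells, were among the genes of largest ratio, as described further on. The globin genes Hba-a1 and Hbb-bt did not share a direction, at 53.8 and 14.7 CPM and at 28.8 and 52.7 CPM in Ing4-/- ST-HSCs and MPPs, and both were under 5 CPM in each WT library. Vwf, the von Willebrand factor carried by platelet-biased stem cells, was level in WT at 95.8 and 98.3 CPM and 92.7 against 9.08 in Ing4-/-, a contrast that was not tested. Car2, the most abundant gene of the list, differed by -0.21 and -0.22 on the log2 scale, at 1560 and 3670 CPM in ST-HSCs and 1350 and 3140 in MPPs. Nfe2 and Gata2, which serve stem cells as well as megakaryocytes, differed by less than 0.28 in size in both genotypes and in opposite directions. Runx1 was the gene higher in both, by 0.06 and 0.89. All 6 tested of the 12 megakaryocyte and platelet markers were lower in MPPs in both genotypes, with a median fitted log2 fold change of -1.34 that was -0.37 without the Ing4-/- ST-HSC library, and the part of whole megakaryocytes or platelets in these values was not tested.

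Among the genes of largest ratio described further on, 3 that belong to the megakaryocyte and erythroid lists, Pf4, Mfsd2b and Rhag, matched an entry of the RefSeq promoter table. Their 250 bases before the RefSeq start (GRCm38.p6) are shown as the regulatory sequence of genes that were lower together in MPPs. Capitals mark matches to AGATAA or TGATAA, letters bound by GATA factors, or to AGGAAG, letters bound by ETS factors, on either strand. The Pf4 window is chr5:90772185-90772434 on the plus strand, Mfsd2b chr12:4874360-4874609 on the minus strand and Rhag chr17:40810899-40811148 on the plus strand.
Pf4: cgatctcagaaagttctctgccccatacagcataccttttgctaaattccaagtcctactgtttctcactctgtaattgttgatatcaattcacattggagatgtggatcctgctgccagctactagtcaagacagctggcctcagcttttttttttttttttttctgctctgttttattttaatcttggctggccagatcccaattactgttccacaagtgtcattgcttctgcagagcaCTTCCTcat
Mfsd2b: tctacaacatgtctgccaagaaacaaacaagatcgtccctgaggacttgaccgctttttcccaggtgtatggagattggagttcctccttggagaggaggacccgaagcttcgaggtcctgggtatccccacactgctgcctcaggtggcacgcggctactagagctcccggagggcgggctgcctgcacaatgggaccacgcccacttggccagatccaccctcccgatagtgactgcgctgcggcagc
Rhag: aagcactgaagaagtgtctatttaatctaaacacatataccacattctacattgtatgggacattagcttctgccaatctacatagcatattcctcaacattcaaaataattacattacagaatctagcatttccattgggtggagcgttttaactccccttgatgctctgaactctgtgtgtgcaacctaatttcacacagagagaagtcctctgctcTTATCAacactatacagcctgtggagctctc

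In the 300-base windows that run from 250 before to 50 after the start, Rhag held a GATA match that begins 31 bases before the start. Pf4 held an ETS match that begins 9 bases before the start and a GATA match at base 37 after it, and Mfsd2b held neither. Among the 32851 promoters of the table, 18.6% hold a GATA match and 35.4% an ETS match of these letters in windows of the same length. A match is a description of the sequence and not a binding site, and its absence says nothing of the factor.

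**Figure D3:**
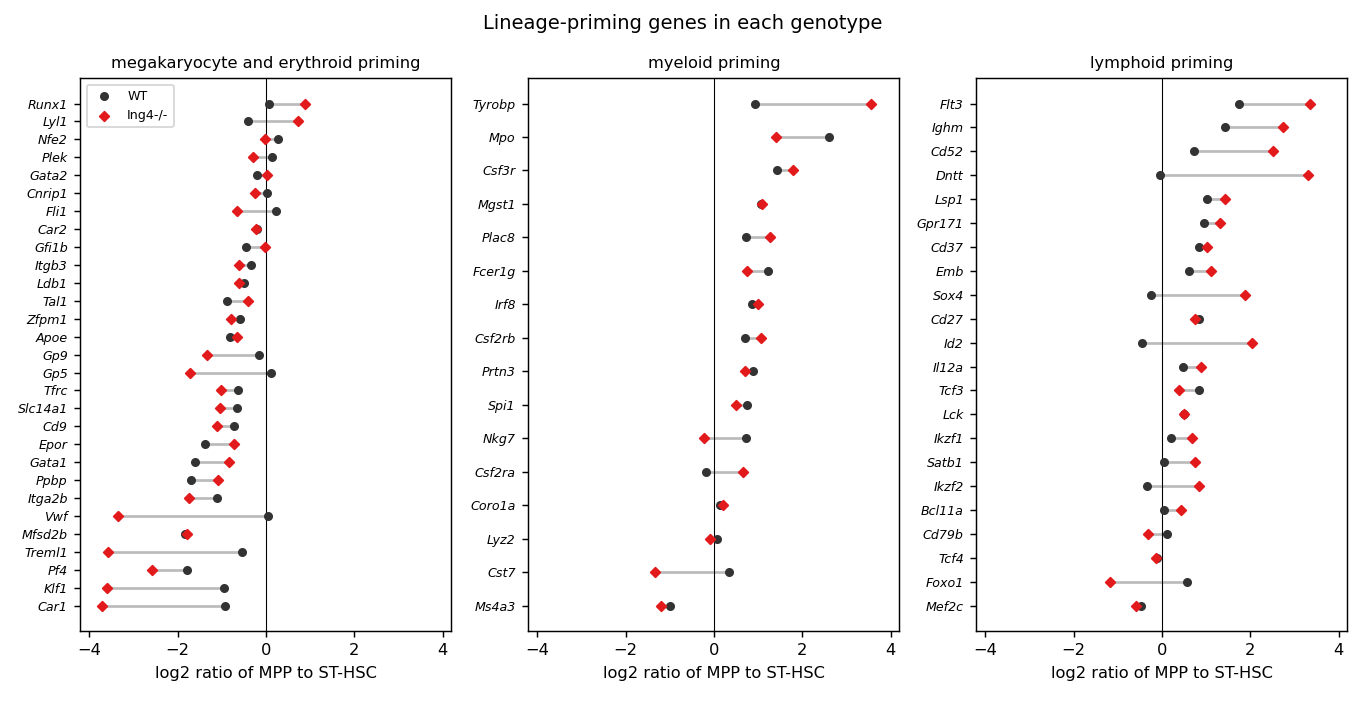
Log2 ratio of MPP to ST-HSC for 29 of the 31 tested megakaryocyte and erythroid genes and all tested genes of the myeloid (16) and lymphoid (22) lists, WT as black circles and Ing4-/- as red diamonds, joined by a line for each gene. Most points of the first panel lie below 0 on the x axis, with Pf4 and Mfsd2b under -1 in both genotypes, and most points of the other panels lie above 0, with Flt3, Csf3r and Mpo above 1 in both.

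Mitosis genes were lower in MPPs almost throughout the list. All 56 genes of mitosis and chromosome segregation were tested, of which 50 were lower in MPPs in both genotypes, 0 were higher in both and 6 went opposite ways, against 29.4% and 25.6% of all genes. The medians were -0.65 in WT and -0.77 in Ing4-/-, and the list was lower in 56 of 56 genes in WT and 50 of 56 in Ing4-/-. At an unadjusted p under 0.05 in edgeR, 28 genes were lower in both genotypes and 0 higher. Of all 11022 genes, 552 were lower and 556 higher in both at that p. The median fitted log2 fold change, -0.76, was -0.41 without the Ing4-/- ST-HSC library. DESeq2 called 8 genes, all lower, which were Birc5, Ccna2, Ccnb1, Cks2, Kif11, Plk1, Spc24 and Top2a. Ccnb1, cyclin B1, was at 116 CPM in WT ST-HSCs, 381 in Ing4-/- ST-HSCs, 47.4 in WT MPPs and 105 in Ing4-/- MPPs, with a fitted log2 fold change of -1.67 ± 0.23 (DESeq2 adjusted p = 7.35e-06). Top2a, the topoisomerase that untangles sister chromatids, was at 344 and 343 CPM in ST-HSCs and 174 and 118 in MPPs, with a fitted log2 fold change of -1.29 ± 0.20. Ccna2, cyclin A2, went from 118 to 55.5 CPM in WT and from 298 to 165 in Ing4-/-. Cks2, a CDK subunit, went from 65.4 to 30.1 and from 184 to 76.0 CPM, Kif11, the spindle motor, from 126 to 64.1 and from 122 to 38.0, and Spc24, of the NDC80 kinetochore complex, from 93.1 to 47.7 and from 232 to 99.5. For each of these the ST-HSC library was the higher in its genotype. Aurka and Aurkb, the Aurora kinases, differed by -0.64 and -1.09 and by -0.86 and -0.74 on the log2 scale. Bub3, a checkpoint protein and the list's most abundant member, differed least among the abundant ones, by -0.38 and -0.33.

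Mki67, the gene of the proliferation antigen Ki-67 (chr7:135689784-135716361), did not follow its list. In WT it had 1225 counts in ST-HSCs and 780 in MPPs, a log2 ratio of -0.95. In Ing4-/- the counts were 50 and 337, and the ratio was 2.58. In CPM the Ing4-/- libraries were at 1.48 and 9.31, under the WT levels of 174 and 90.0 in spite of their greater depth. The other 5 of opposite direction were Smc4, Ttk, Racgap1, Nusap1 and Cdca3, whose Ing4-/- ratios lay between 0.006 and 0.82.

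**Figure D4:**
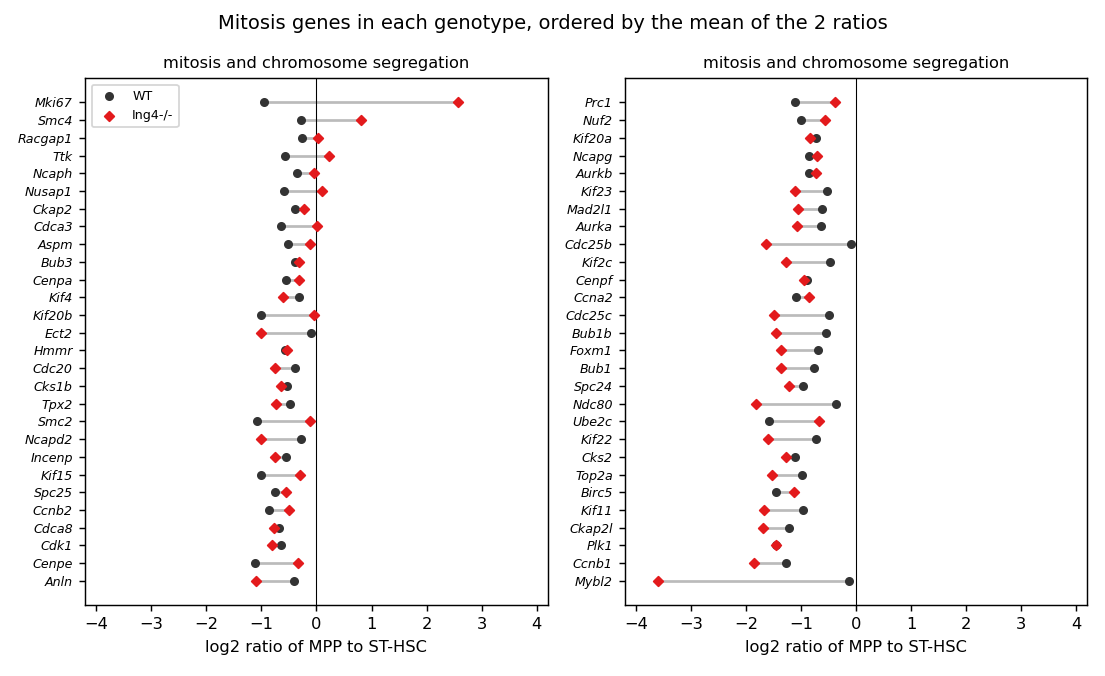
Log2 ratio of MPP to ST-HSC for the 56 mitosis genes, ordered by the mean of both ratios over 2 panels, WT as black circles and Ing4-/- as red diamonds. The black points are all under 0 and 50 of the red points are, with Mki67 at -0.95 and 2.58 at the top and Mybl2 at -0.14 and -3.62 at the foot.

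DNA replication genes leaned the same way with smaller ratios. Of 53 tested of 54, 40 were lower in MPPs in both genotypes, 0 were higher in both and 13 went opposite ways, against 29.4% lower and 25.6% higher among all genes. The medians were -0.36 in WT and -0.56 in Ing4-/-. The median fitted log2 fold change, -0.42, was -0.22 without the Ing4-/- ST-HSC library. DESeq2 called Rrm1 and Tyms, enzymes of deoxynucleotide supply. Rrm1 went from 372 to 248 CPM in WT and from 669 to 334 in Ing4-/-, and Tyms from 203 to 129 and from 345 to 178. Pcna, the sliding clamp, went from 212 to 153 and from 481 to 281 CPM. Among the MCM helicase genes, which were the most abundant, the ratios were near 0 in WT for some and varied in Ing4-/-, with Mcm6 at -0.06 and -0.25, Mcm3 at -0.13 and -0.60 and Mcm7 at -0.34 and -0.38 on the log2 scale. Mcm2 was -0.17 in WT and 0.57 in Ing4-/-. Of the replication-dependent histone genes, a list added after the values were seen, 18 of 31 tested were lower in both, 5 higher in both and 8 of opposite direction. The linker histone gene Hist1h1a had 39 and 562 counts in ST-HSCs and 15 and 86 in MPPs of WT and Ing4-/-.

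The genes that govern G1 showed no shared direction. Among 13 tested of 14 G1 cyclins and CDKs, 2 were higher in both, 5 lower in both and 6 of opposite direction. Cdk4 differed by -0.07 and 0.10 on the log2 scale, Ccnd2 by -0.40 and 0.09 and Ccnd3 by -0.33 and -0.31. Among 17 tested of 20 CDK inhibitors and brakes, 6 were higher in both, 4 lower in both and 7 of opposite direction. Trp53 was level, with 178 and 187 CPM in WT and 269 and 271 in Ing4-/-, Btg2, an antiproliferative p53 target, went from 90.3 to 160 and from 86.6 to 113, and Ccng1 differed by 0.28 and -0.46. Cdkn1c, the p57 inhibitor of dormant stem cells, had 40.4 and 17.6 CPM in ST-HSCs and MPPs of Ing4-/- mice but under 4 CPM in both WT libraries. The lower mitosis transcripts in MPPs were thus not accompanied by a shared direction of these 2 lists.

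Genes commonly associated with HSCs did not separate the populations as a group. Of 29 tested of 34, 10 were higher in MPPs in both genotypes, 10 lower in both and 9 of opposite direction, with medians of 0.05 and -0.01. Those lower in both included Hoxb5, a marker of long-term HSCs, at 8.82 and 15 CPM in ST-HSCs and 4.04 and 2.24 in MPPs, though its WT counts of 62 and 35 are under the average background of 63.4 and 50.4. Clu, the chaperone clusterin, was at 18.6 and 45.2 CPM in ST-HSCs and 3.23 and 13.4 in MPPs. Its WT counts of 131 and 28 compare with an average background of 78.2 and 62.2, so the size of its WT difference is uncertain. Ctnnal1, alpha-catulin, was at 84.2 and 77.7 CPM in ST-HSCs against 50.3 and 35.9 in MPPs. Higher in both were Hlf, a stem cell transcription factor, at 95 and 126 CPM in ST-HSCs and 126 and 241 in MPPs, and Procr, the EPCR receptor, at 27.6 and 30.8 against 47.8 and 56.5. The abundant members Ctla2a, Txnip and Ifitm1 were higher in both by 0.09 to 0.51 on the log2 scale. Of 28 tested stem cell transcription factors, 12 were higher in both, 5 lower and 11 of opposite direction. Meis1 was level, at 432 and 425 CPM in WT and 431 and 525 in Ing4-/-, and Lmo2 differed by 0.27 and 0.004. Of the 31 Hox genes 6 were tested, with 1 higher in both, 3 lower in both and 2 of opposite direction. Hoxa9, the most abundant, differed by -0.02 and -0.07, Hoxa10 by -0.55 and -0.45 and Hoxa7 by 0.41 and 2.05.

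Receptors of niche signals, adhesion and cytokines were more often higher than lower in MPPs, with 22 of 41 tested higher in both, 6 lower in both and 13 of opposite direction. The shares of all genes were 25.6% higher and 29.4% lower, and the medians of the list were 0.18 and 0.42. DESeq2 called Flt3, Csf3r and Kit higher and Itga2b and Cd9 lower. Among the rest, Selplg, the P-selectin ligand, went from 219 to 333 CPM in WT and from 296 to 431 in Ing4-/-. Icam1 was at 35.4 and 34.9 CPM in ST-HSCs and 60.5 and 109 in MPPs. Cd47, the signal that stops engulfment, differed by 0.05 and 0.29 on the log2 scale. S1pr1, the sphingosine-1-phosphate receptor, had 35 and 101 CPM in ST-HSCs and MPPs of WT mice but 63.4 and 20.0 in those of Ing4-/- mice, and this contrast was not tested.

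Immediate-early genes, which respond within minutes to stimulation or to handling of cells, were higher in MPPs in both genotypes in 15 of 26 tested, lower in both in 3 and of opposite direction in 8, with medians of 0.41 and 0.25. For this list and the next 2, the shares of all genes were 25.6% higher and 29.4% lower in both. DESeq2 called Fos and Zfp36. Fos went from 1250 to 2110 CPM in WT and from 856 to 1200 in Ing4-/-, and Zfp36, which destabilises inflammatory transcripts, from 480 to 780 and from 268 to 410. Jun went from 2140 to 2980 and from 451 to 540 CPM. Dusp1 was 818 and 1330 in WT and 857 and 837 in Ing4-/-. Interferon response genes were higher in both in 20 of 36 tested, lower in both in 5 and of opposite direction in 11, with medians of 0.26 and 0.25 and no call by either tool. Irf1 went from 106 to 156 and from 73.9 to 106 CPM and Oasl2 from 84.9 to 155 and from 48.4 to 92.8, while B2m, the most abundant, differed by -0.21 and -0.01, Ly6e by 0.11 and 0.24 and Ifitm3 by -0.09 and 0.002. MHC class II genes were higher in both in 5 of 9 tested and lower in both in 0. H2-DMa, a peptide-loading chaperone, went from 132 to 183 and from 265 to 386 CPM, and H2-Ob from 13.1 to 51.6 and from 54.9 to 117. H2-Ab1 differed by 0.56 and 0.28, and H2-DMb1 by 0.46 and -0.85.

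Most nuclear oxidative phosphorylation genes were slightly lower in MPPs in both genotypes. Of 77 tested, 50 were lower in both genotypes, 10 higher in both and 17 of opposite direction, against 29.4% lower and 25.6% higher among all genes. The medians of the list were -0.13 in WT and -0.26 in Ing4-/-, and neither tool called any of its genes. The median fitted log2 fold change of the list, -0.22, was -0.02 without the Ing4-/- ST-HSC library. That fit kept the LT-HSC libraries, so it does not show how much of the size rests on the library left out. Atp5b, the beta subunit of ATP synthase, was level in WT at 1300 CPM in each population and at 2940 and 2450 in Ing4-/-, Atp5a1 differed by 0.10 and -0.01, and Uqcrc1 by 0.36 and -0.37. Cox6c and Atp5f1 were lower by -0.39 and -0.39 and by -0.48 and -0.46. Of the genes of the mitochondrial genome, a list added after the values were seen, 6 of 9 tested were lower in both and 0 higher. DESeq2 called mt-Nd1, a complex I subunit, which went from 1370 to 798 CPM in WT and from 2090 to 1390 in Ing4-/-. mt-Co1 went from 1920 to 1630 and from 5330 to 4070 CPM, and mt-Cytb from 1390 to 1190 and from 3620 to 2800. Cytosolic ribosomal protein genes were lower in both in 38 of 82 tested, higher in both in 10 and of opposite direction in 34, with medians of -0.10 and -0.01. Rplp0 and Rpsa differed by less than 0.20 in size. Nucleolar ribosome assembly factors were split, with 11 higher, 15 lower and 21 of opposite direction among 47, and Npm1 at -0.20 and -0.21, Ncl at -0.08 and -0.14 and Nop56 at -0.05 and -0.24. Glycolysis genes were higher in both in 9 of 22, lower in both in 3 and of opposite direction in 10. Ldha, lactate dehydrogenase A, which DESeq2 called lower in MPPs, went from 1000 to 857 CPM in WT and from 3120 to 1690 in Ing4-/-. Gapdh differed by 0.02 and -0.08, Pkm by 0.40 and 0.13 and Slc2a3, a glucose transporter, by 0.52 and 0.68.

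**Figure D5:**
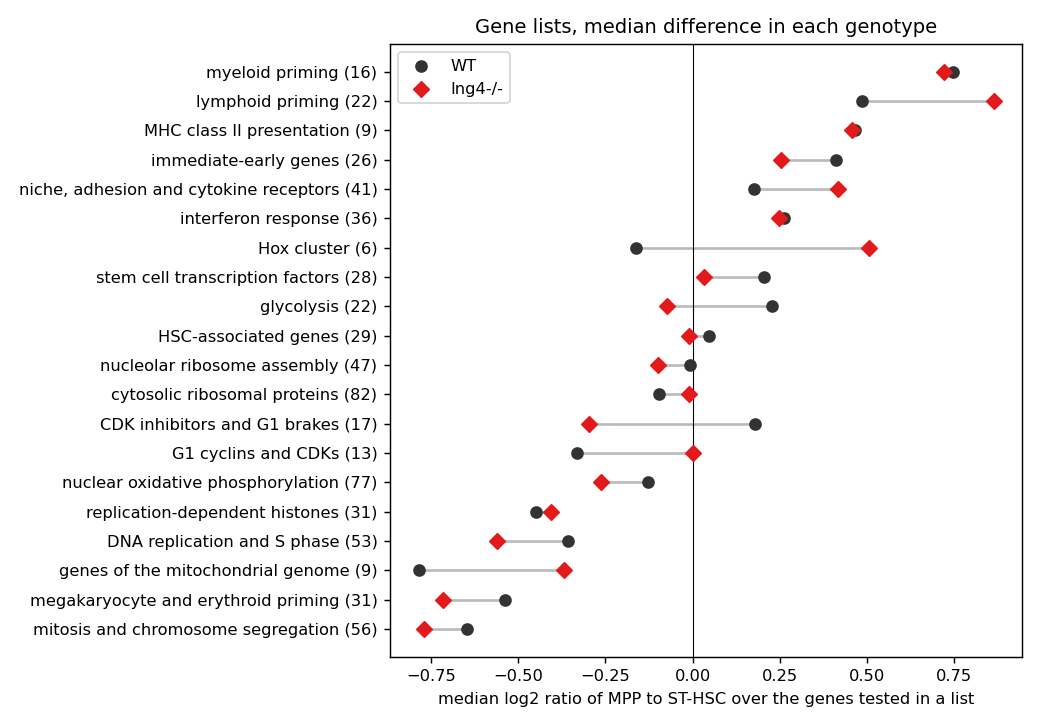
Median log2 ratio of MPP to ST-HSC over the tested genes of each list, leaving out the gate and cell type markers, with their number in brackets, WT as black circles and Ing4-/- as red diamonds. Myeloid priming sits at 0.75 and 0.72, lymphoid priming at 0.49 and 0.86 and mitosis at -0.65 and -0.77, the mitochondrial genome is lower still in WT at -0.78, and HSC-associated genes lie near 0.

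Ranked by the smaller of the 2 log2 ratios among all tested protein-coding genes, the largest shared differences lay mostly in genes of low count. Higher in MPPs were Dusp5, Wfdc17, Ccl3, Sh3tc1, Hlx, Ldlrad4, Flt3, Nhlrc3, Ccdc51, Nuak2, Bcl2l11, Cfap97d1, Vangl2, Irf5 and Lat2, with a smaller ratio between 1.55 and 2.23. Dusp5, a phosphatase that switches off ERK, had 13 and 67 counts in ST-HSCs and 78 and 582 in MPPs of WT and Ing4-/-. Wfdc17, a secreted anti-protease of activated macrophages, had 20 and 298 counts in ST-HSCs and 109 and 3163 in MPPs, and was called by DESeq2 (adjusted p = 0.00537). Ccl3, the neighbour of Ccl4 on chromosome 11, had 47 and 96 counts against 222 and 891. Irf5, an interferon regulatory factor, was at 18.8 and 16.9 CPM in ST-HSCs and at 55.4 and 60.2 in MPPs, and Hlx, a homeobox gene of myeloid cells, at 2.70 and 2.70 against 10.6 and 9.64. Bcl2l11, the gene of the pro-apoptotic protein BIM, was at 7.82 and 4.57 CPM against 24.4 and 16.1. In each of these the MPP levels were above both ST-HSC levels. The WT counts exceeded the average background in both WT libraries for 5 of these 15 genes and for 48 of the 100 genes more than 2-fold higher in both genotypes, against 9650 of the 11022 tested.

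The 15 genes lower in MPPs by the same rule included D17Wsu92e, Retnlg, Aqp1, 2200002D01Rik, Pf4, Mfsd2b, Tuba8, Clu, Gm14403, Rab39b, Isg15, Hist1h1a, Rhag and Ankle1, with a smaller absolute ratio between 1.57 and 1.97. Aqp1 (chr6:55336432-55348555) had 106 and 888 counts in ST-HSCs and 34 and 90 in MPPs. Rhag, the Rh-associated glycoprotein, had 145 and 1439 counts in ST-HSCs and 58 and 249 in MPPs. Tuba8, an alpha-tubulin of platelets among other cells, was at 77.6 and 211 CPM in ST-HSCs and 23.0 and 34.7 in MPPs and was called by DESeq2 (adjusted p = 3.21e-06). Both ST-HSC levels were above both MPP levels in these 3 genes. Ankle1, a nuclease of haematopoietic cells, was at 73.7 and 21.3 CPM against 20.7 and 7.12. Isg15 had 28 and 414 counts in ST-HSCs and 10 and 139 in MPPs, the opposite of most of its interferon list. The WT counts exceeded the average background in both WT libraries for 8 of these 15 genes and for 73 of the 118 genes more than 2-fold lower in both.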

How the data were processed

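Read counts per gene were deposited for 6 bulk RNA-seq libraries, 1 per population and genotype, from cells sorted into lysis buffer and sequenced by a service provider. The deposited values are raw counts on the mm10 build, named in the submitters' processing notes; the aligner, counter, annotation and strand setting are not given in the sources used here. Per the file headers each table also gives a gene length, used as another value for background and length checks. Genes were named and located with GENCODE M21, which held 49056 of the 49315 genes, and promoter sequences came from RefSeq (GRCm38.p6). No per-sample column was left unused. Some genes are not reported here.

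Genes with 10 or more counts in all 4 libraries were fitted with edgeR 4.0.16 (TMM, quasi-likelihood F test, genotype plus population, Benjamini-Hochberg adjustment over 11022 genes, R 4.3.3), and each SE was taken as the absolute log2 fold change over the root of its F statistic. A call required an adjusted p under 0.05 and the same sign in both genotypes. DESeq2 1.42.0 was the alternative test. CPM values of single genes are TMM-normalized and marker sums are scaled to total counts, and log2 ratios within a genotype used a prior count of 2. No interaction could be fitted. Labels do not show whether libraries come from separate sorts. The genotypes stood in as replicates, so p-values and SEs rest on how far the 2 genotypes disagree in the MPP to ST-HSC difference. Any effect of genotype, depth or background on that difference is part of this spread, and the spread between repeat sorts was not measured. Counting depth limits low genes most in the WT libraries. The scripts were tested on simulated data. Named genes were the 15 in each direction with the largest smaller ratio among protein-coding genes, called ones before others, members of gene lists that were called or were the 3 most abundant, gate markers, Ing4 and Mki67, and the 3 largest opposite ratios in each direction. Other list members given as examples fall outside this rule and were chosen with their values in view. The members and lists were chosen with earlier results of these data known. No 2 libraries agreed within counting noise (lowest chi-square per degree of freedom 14.1). Alternatives covered normalization, test, filter, block, libraries, background, depth, length, gene class, fold and threshold. Figures were drawn with matplotlib 3.10.9.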

Additional observations from a re-analysis of the deposited data

Results flagged for a closer look

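More than 2-fold differences in opposite directions in the 2 genotypes were found in 121 genes, 56 higher in MPPs in WT and lower in Ing4-/- and 65 the reverse, and none of these differences between genotypes was tested, since each population has 1 library per genotype. The genes over 2-fold in the same direction numbered 100 higher and 118 lower. The largest were Snx20, a sorting nexin, with a log2 ratio of 2.38 in WT and -3.53 in Ing4-/- (31 and 202 WT counts in ST-HSC and MPP, 269 and 22 in Ing4-/-), Adcy9, an adenylate cyclase, with 1.96 and -2.03, and Bloc1s3, with 2.49 and -1.76. In the reverse direction stood 2510039O18Rik with -2.44 in WT and 3.41 in Ing4-/-, Ppfia4 with -2.26 and 2.32, and Ctdp1 with -2.16 and 2.77. In WT at least 1 of the 2 counts of each of these 6 genes was under the average background. Mki67 had a log2 ratio of -0.95 in WT and 2.58 in Ing4-/-, on 1225 and 780 WT counts and 50 and 337 Ing4-/- counts, and its WT counts were above the average background of 229 and 182.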

How the results depend on the processing

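Calls depended on the test and on depth. DESeq2 called 38 genes higher and 34 lower, edgeR with a filter of 50 counts called 2 higher (Cd34 and Flt3) and 1 lower (Pf4), and edgeR on libraries thinned to equal total counts, background included, called 9 higher (Cd34, Flt3, Plppr3, Gcnt2, Mpo, Csf3r, Kit, H2afy and Gpr171) and 8 lower (Pf4, Itga2b, Tuba8, Ccnb1, Top2a, Hmgb2, Tuba1b and mt-Nd1). Every other edgeR setting that was run gave 0 calls in each direction, also without the replicate block, where 46 genes had an unadjusted p under 0.05, and when each of the 4 libraries was left out of the 6-library fit (0 to 0 calls, with 30 to 948 genes at an unadjusted p under 0.05), which assumes that a lone library varies like the others. The replicate numbers are all 1 and pair nothing beyond the genotype. The count of genes over 2-fold in both genotypes was 445 higher and 310 lower with filterByExpr, 508 and 359 with no filter, 60 and 53 with a minimum of 50 counts, 51 and 74 among genes above the WT background (an alternative chosen after seeing the data), 386 and 458 at 1.5-fold and 2 and 0 at 4-fold. With background subtracted 177 were higher and 136 lower. The filter settings test more or fewer genes by construction. The 30 genes of largest ratio were chosen on these libraries, so their sign under the alternatives is no check, and sizes moved, as for Isg15 from -1.69 to between -2.82 and -0.27. The median log2 fold change of 14 of 22 lists kept its sign in every alternative. The range over alternatives was -1.10 to -0.41 for mitosis, -0.84 to -0.60 for megakaryocyte and erythroid priming, 0.55 to 0.86 for myeloid priming and 0.22 to 0.90 for lymphoid priming, -0.31 to -0.02 for nuclear oxidative phosphorylation, 0.11 (without the WT MPP library) to 0.74 (without the Ing4-/- MPP library) for immediate-early genes, 0.11 (without the Ing4-/- ST-HSC library) to 0.43 (without the Ing4-/- MPP library) for interferon response, 0.19 (without the WT MPP library) to 0.75 (without the Ing4-/- MPP library) for MHC class II, 0.22 (without the Ing4-/- ST-HSC library) to 0.58 for niche receptors and -0.81 (without the Ing4-/- MPP library) to -0.33 for the mitochondrial genome, while the histone list ran from -0.76 to 0.09. With DESeq2-style size factors the median WT ratio moved by -0.055.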

Other observations

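Set beside the LT-HSC libraries, the mitosis list was highest in ST-HSCs among the 3 populations. In both genotypes ST-HSCs held the highest level for 48 of 56 mitosis genes and 33 of 53 replication genes, against 1553 of 11022 genes tested (14.1%). With all 6 libraries scaled together, Ccnb1 stood at 19.2, 117 and 47.7 CPM along LT-HSC, ST-HSC and MPP of WT mice, and at 64.7, 383 and 106 CPM in Ing4-/- mice. ST-HSCs were also highest in both genotypes for 36 of 77 nuclear oxidative phosphorylation genes. None of these orders was tested.

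The megakaryocyte and erythroid list had no single highest population when LT-HSCs were added. Itga2b, Pf4, Treml1, Gata1, Zfpm1, Epor, Gfi1b, Cd9, Slc14a1, Mfsd2b and Ldb1, 11 of 31 genes, were highest in ST-HSCs in both genotypes, whereas 6 genes, among them Vwf, Gp9, Gata2, Klf1 and Car1, were highest in LT-HSCs (19.4%, against 14.9% of all genes), 1 was highest in MPPs and for 13 the highest population differed between genotypes. Pf4 stood at 28.7 CPM in WT LT-HSCs and 61.0 in Ing4-/- LT-HSCs, under the 64.4 and 367 of ST-HSCs. Car1 stood at 197 and 100 CPM in LT-HSCs and at 23.6 and 32.5 in ST-HSCs. HSC-associated genes, which did not separate ST-HSCs from MPPs, were highest in LT-HSCs in both genotypes in 17 of 29 and highest in ST-HSCs in 0, and 14 of 26 immediate-early genes were highest in LT-HSCs in both, against 1646 of 11022 genes (14.9%). MPPs were highest in both genotypes for 11 of 22 lymphoid and 8 of 16 myeloid priming genes, against 1207 of 11022 genes (11%).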
